A study of Mus musculus with 12 samples.

Results

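Autophagy genes were followed in the liver of mice fed a high-fat diet (HFD). The 10 genes were taken from a list of symbols and were all found among the 23849 gene symbols of the expression table. They are Ulk1, Becn1, Atg14, Map1lc3a, Map1lc3b, Gabarapl1, Sqstm1, Bnip3, Tfeb and Lamp2. All 10 passed the filter of a mean of at least 1 FPKM over all samples, as did 9806 symbols in all. Male C57BL/6 mice, 8 weeks of age, were given vehicle (drinking water) or Libramed by oral gavage for 2 weeks. By the study's account, they had been on HFD for 4 weeks before the first gavage and stayed on it. Libramed is the name in the labels for the product the study calls Policaptil Gel Retard, a fiber mixture that forms a gel in the gut. Livers were collected at ZT0 or ZT12, in Zeitgeber time (ZT), hours from lights on. ZT0 is the end and ZT12 the beginning of the active phase of mice, and the daily gavage came shortly before ZT12. The 4 groups (vehicle ZT0, vehicle ZT12, Libramed ZT0 and Libramed ZT12) held 3 mice each, 12 in all, every one of them on HFD. No group on normal diet was sequenced, so no value here compares HFD with another diet.

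Autophagy encloses cytoplasm, mitochondria, lipid droplets or protein aggregates in a double membrane, the autophagosome, and delivers them to lysosomes for degradation. A kinase complex around ULK1 starts the membrane, a lipid kinase complex with Beclin 1 and ATG14 marks the site, and proteins of the ATG8 family are attached to the growing membrane. Receptors such as p62 and BNIP3 tie cargo to ATG8 proteins, and fusion with lysosomes ends the process. In liver, autophagy supplies amino acids, glucose and fatty acids between meals and is known to follow feeding and the circadian clock. The measurements are of messenger RNA in whole liver, and neither protein, nor ATG8 lipidation, nor the flow of cargo was measured in these samples.

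Over time of day, 3 of 10 members changed with vehicle, against 10.4% of all genes tested, and 3 of 10 with Libramed, against 12.4%. They were the same genes in both treatments, and the overlap of calls over all genes is not given here. With vehicle the count of members called was 0 to 2 when 1 library was left out, and with Libramed it was 3 to 4. The members were chosen with earlier results of these data known. Their shares beside those of all genes, here and below, are therefore descriptions and cannot test whether autophagy genes changed more often. Of the other autophagy genes tested, 13 of 108 changed with vehicle and 10 of 108 with Libramed. Bnip3 and Ulk1 were higher at ZT12 than at ZT0, and Sqstm1 was lower. Their upstream sequences, the 250 bases before the RefSeq start in build GRCm38.p6 (mm10), are shown because these members carried the change. All 3 genes lie on the minus strand and the sequences are written 5′ to 3′ on that strand. Capitals mark CACGTG, the E-box, a motif bound by clock factors and by TFEB among others.
Ulk1, chr5:110810082-110810331: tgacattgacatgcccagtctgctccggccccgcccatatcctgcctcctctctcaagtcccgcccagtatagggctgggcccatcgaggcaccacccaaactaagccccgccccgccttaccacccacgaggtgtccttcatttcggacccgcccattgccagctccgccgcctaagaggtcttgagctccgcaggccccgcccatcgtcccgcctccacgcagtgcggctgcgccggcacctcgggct
Bnip3, chr7:138909507-138909756: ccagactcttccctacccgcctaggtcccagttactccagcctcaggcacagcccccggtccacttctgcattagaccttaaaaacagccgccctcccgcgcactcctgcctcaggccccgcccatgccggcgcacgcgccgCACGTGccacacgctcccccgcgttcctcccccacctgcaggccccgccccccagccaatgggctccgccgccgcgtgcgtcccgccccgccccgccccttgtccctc
Sqstm1, chr11:50210821-50211070: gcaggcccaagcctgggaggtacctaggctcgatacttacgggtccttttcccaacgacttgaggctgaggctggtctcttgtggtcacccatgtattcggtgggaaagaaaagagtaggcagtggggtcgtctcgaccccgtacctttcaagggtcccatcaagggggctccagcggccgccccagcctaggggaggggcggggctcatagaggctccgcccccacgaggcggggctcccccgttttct
The Bnip3 sequence held a single CACGTG, whose first base lay 108 bases before the start. Of 32851 mouse promoter windows of the same length, 6.02% held this motif on either strand. The same letters hold the core of the hypoxia response element, ACGTG, in both orientations, a motif found in 16.6% of windows. Promoter windows of 8 members were searched, with 3 windows for the alternative starts of Tfeb. Map1lc3a and Becn1 had no window and were not searched. CACGTG and ACGTG were found in none of the searched windows other than that of Bnip3. The forkhead motif GTAAACA (3.17% of windows) and the antioxidant response core TGACNNNGC (10.2%) had no match in these 8 members. The D-box TTATGNAA, searched like the others on both strands, is in 3.07% of windows. Among the 8 members it was found only in Atg14, 210 bases before the start. Such matches are descriptions of the letters and no binding was measured.

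The members spanned a wide range of mRNA levels. FPKM scales the reads of a gene by transcript length and by the mapped reads of the library, so levels can be set side by side between genes. Over the 12 mice Lamp2 was the highest with a mean of 218 FPKM, rank 422 of 9806 genes, followed by Sqstm1 with 204 and Gabarapl1 with 183 FPKM. Map1lc3a (58.1 FPKM), Bnip3 (55.7) and Map1lc3b (47.7) formed a middle range, followed by Becn1 (28.3) and Ulk1 (17.4). Atg14 with 5.84 FPKM and Tfeb with 5.38 FPKM were the lowest, the latter at rank 5952. Of neighbours in this order, Gabarapl1 was above Map1lc3a, Map1lc3b above Becn1, Becn1 above Ulk1 and Ulk1 above Atg14 in every mouse of each group. The other neighbours were not kept apart in every group. For example, Bnip3 was below Map1lc3a at ZT0 and above it at ZT12 in both treatments. Across the 12 mice, the highest value was 1.24 times the lowest for Becn1 and 2.99 times for Bnip3, the narrowest and the widest range of the 10.

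**Figure D1:**
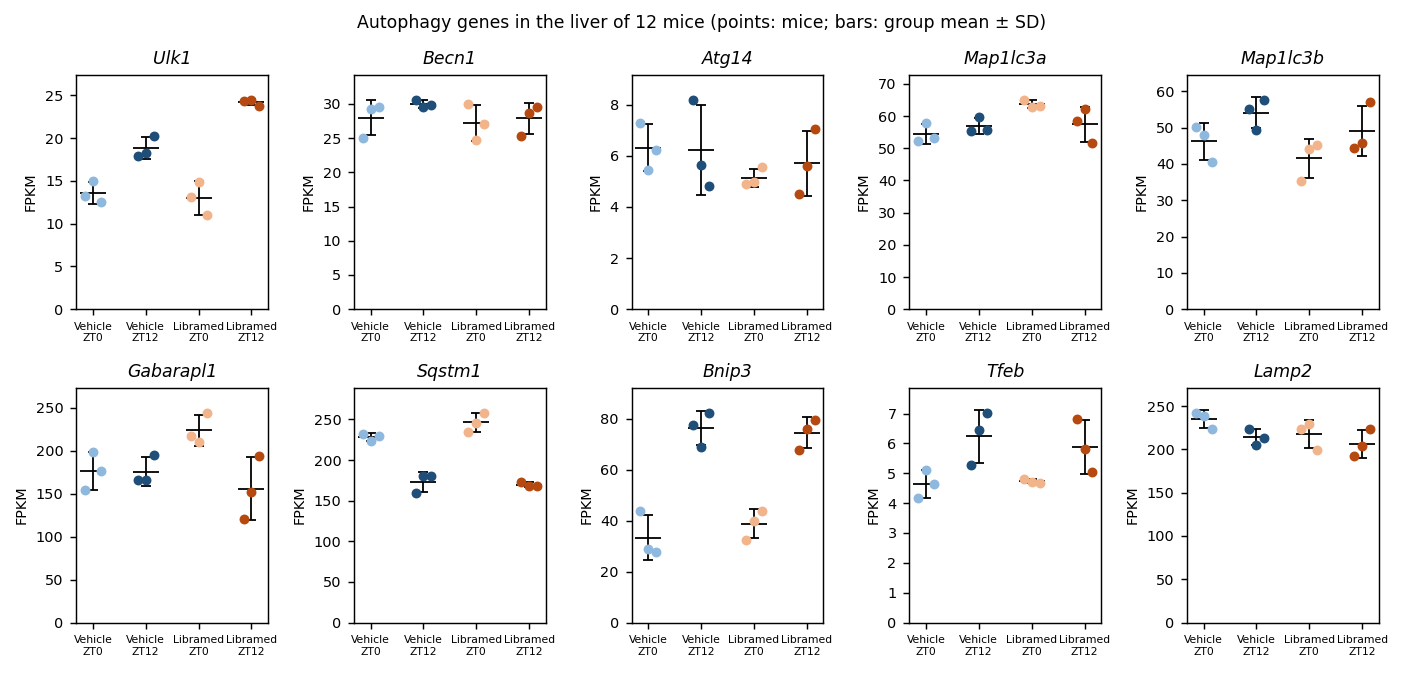
Level of each autophagy gene in FPKM (y axes, from 0) in vehicle and Libramed mice at ZT0 and ZT12 (x axes). Points are mice, 3 a group, and bars give the group mean ± SD. Bnip3 and Ulk1 sat higher and Sqstm1 lower at ZT12 in both treatments, with no overlap between the times, while Becn1 stayed between 24.7 and 30.6 FPKM in all mice.

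Ulk1 encodes the kinase that starts autophagosome formation and lies on chromosome 5 (110784488 to 110810097, minus strand, ENSMUSG00000029512.11). With vehicle its level was 13.2, 15 and 12.5 FPKM at ZT0 and 17.9, 18.3 and 20.3 FPKM at ZT12. With Libramed it was 13.1, 14.9 and 11 FPKM at ZT0 and 24.4, 24.5 and 23.8 FPKM at ZT12. The ZT0 mice of both treatments overlapped, and all ZT12 mice were above them, with the Libramed mice highest. On the log2(FPKM + 1) scale, Ulk1 rose by 0.45 (SE 0.0962) at ZT12 with vehicle, limma adjusted p = 0.0343. With Libramed it rose by 0.86 (SE 0.112), limma adjusted p = 0.00565.

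Becn1, on chromosome 11 (101285952 to 101302286, minus strand, ENSMUSG00000035086.13), encodes the scaffold of the lipid kinase complex, and Atg14, on chromosome 14 (47540893 to 47570649, minus strand, ENSMUSG00000037526.7), the subunit that brings the complex to the site of membrane formation. Becn1 was at 25, 29.3 and 29.6 FPKM in vehicle ZT0, 30.6, 29.5 and 29.8 in vehicle ZT12, 29.9, 24.7 and 27 in Libramed ZT0 and 25.3, 28.7 and 29.6 FPKM in Libramed ZT12. Atg14 was at 7.29, 5.45 and 6.22 FPKM in vehicle ZT0, 8.19, 5.63 and 4.83 in vehicle ZT12, 4.89, 4.96 and 5.55 in Libramed ZT0 and 4.50, 5.61 and 7.03 FPKM in Libramed ZT12. Their groups overlapped in each comparison of time and of treatment, and neither gene had an unadjusted limma p under 0.05 in any of them.

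The ATG8 family members Map1lc3a (chromosome 2, 155276297 to 155278073, plus strand, ENSMUSG00000027602.9), Map1lc3b (chromosome 8, 121590361 to 121598760, plus strand, ENSMUSG00000031812.16) and Gabarapl1 (chromosome 6, 129533160 to 129542346, plus strand, ENSMUSG00000030161.8) encode the small proteins attached to the autophagosome membrane. Map1lc3b was at 50.1, 47.9 and 40.6 FPKM in vehicle ZT0, 55.1, 49.4 and 57.7 in vehicle ZT12, 35.4, 44 and 45.2 in Libramed ZT0 and 44.5, 45.9 and 57.1 FPKM in Libramed ZT12. The times overlapped in each treatment, although the ZT12 mean was higher in both. Map1lc3a was at 52.3, 58.0 and 53.2 FPKM in vehicle ZT0, 55.4, 59.7 and 55.6 in vehicle ZT12, 65.1, 62.7 and 63.2 in Libramed ZT0 and 58.4, 62.3 and 51.6 FPKM in Libramed ZT12. The Libramed ZT0 mice were thus the highest of the 4 groups for Map1lc3a.

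Gabarapl1 was at 154, 199 and 176 FPKM in vehicle ZT0 and at 166, 166 and 195 FPKM in vehicle ZT12. With Libramed it was at 217, 210.3 and 244 FPKM at ZT0 and at 121, 152 and 194 FPKM at ZT12. The vehicle mice overlapped between times, while the Libramed mice did not, with the ZT0 mice above all others. The Libramed difference over time, -0.54 on the log2 scale (SE 0.169), had an unadjusted limma p of 0.0144 and missed the threshold after adjustment (0.0804). Without Libramed ZT12 replicate 3, the highest mouse of its group, it was -0.71 with a limma adjusted p of 0.0376. That library was also the only one with a sum of skeletal muscle markers above 0.00991 FPKM, at 41.7 FPKM over 4 markers, and the part of muscle RNA in the values of this mouse was not tested.

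Sqstm1 (chromosome 11, 50199366 to 50210827, minus strand, ENSMUSG00000015837.15) encodes p62, which binds ubiquitin-tagged cargo and is itself degraded with it. With vehicle it was at 232, 223 and 230.1 FPKM at ZT0 and at 159, 180.2 and 179.9 FPKM at ZT12. With Libramed it was at 235, 246 and 258 FPKM at ZT0 and at 173, 168 and 168 FPKM at ZT12. All 6 ZT12 mice were below all 6 ZT0 mice. On the log2 scale Sqstm1 fell by 0.40 in vehicle mice (SE 0.0850, limma adjusted p = 0.0322) and by 0.54 in Libramed mice (SE 0.0748, limma adjusted p = 0.00715).

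Bnip3 (chromosome 7, 138890836 to 138909519, minus strand, ENSMUSG00000078566.8) encodes a protein of the outer mitochondrial membrane that recruits ATG8 proteins in mitophagy, the removal of mitochondria. With vehicle it was at 43.6, 28.8 and 27.5 FPKM at ZT0 and at 77.3, 69.0 and 82.2 FPKM at ZT12. With Libramed it was at 32.5, 39.8 and 43.7 FPKM at ZT0 and at 67.8, 76.1 and 79.5 FPKM at ZT12. The lowest ZT12 mouse was well above the highest ZT0 mouse. On the log2 scale Bnip3 rose by 1.19 with vehicle (SE 0.179, limma adjusted p = 0.0125) and by 0.94 with Libramed (SE 0.124, limma adjusted p = 0.00599), the largest change of the 10 members in both.

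Tfeb (chromosome 17, 47737030 to 47792419, plus strand, ENSMUSG00000023990.18) encodes a transcription factor of lysosomal and autophagy genes. With vehicle it was at 4.18, 5.11 and 4.64 FPKM at ZT0 and at 5.28, 6.44 and 7.02 FPKM at ZT12. With Libramed it was at 4.81, 4.70 and 4.69 FPKM at ZT0 and at 6.83, 5.81 and 5.03 FPKM at ZT12. The times did not overlap in either treatment, by a narrow margin in both. The log2 differences of 0.36 with vehicle (SE 0.119, exact permutation p = 0.1, limma p of 0.0200 before and 0.107 after adjustment) and 0.26 with Libramed (SE 0.108, exact permutation p = 0.1, limma p of 0.0480 and 0.166) missed the threshold.

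Lamp2 (chromosome X, 38401357 to 38456454, minus strand, ENSMUSG00000016534.15) encodes a glycoprotein of the lysosomal membrane needed for the fusion of autophagosomes with lysosomes. Its level was 242, 239 and 223 FPKM in vehicle ZT0, 224, 205 and 213 in vehicle ZT12, 224, 229 and 199 in Libramed ZT0 and 192, 204 and 224 FPKM in Libramed ZT12. The groups overlapped in each comparison, and no unadjusted limma p was under 0.05. The table holds one value a gene, so the splice forms of Lamp2, which differ in function, were not separated.

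For the whole list, the groups did not overlap for 4 members with vehicle and for 6 with Libramed, against 33.2% and 34.9% of all genes. The members' median log2 difference was 0.080 with vehicle and 0.074 with Libramed, beside 0.0078 and 0.013 over all genes. With 3 mice against 3, the exact permutation test of a single gene cannot go below p = 0.1, which was reached by each member whose groups did not overlap. The vehicle calls depended on single libraries among the 6, to a different degree for each gene. Sqstm1 lost its call without any single one of them (limma adjusted p 0.050 to 0.111), Ulk1 without any one except vehicle ZT0 replicate 2 (0.0661 to 0.124), and Bnip3 without vehicle ZT12 replicate 3 (0.0521). In the other alternatives run, which were limma settings and another test, the adjusted p of Sqstm1 with vehicle reached 0.667. Ulk1 and Bnip3 did not keep their vehicle calls in all of these alternatives either. With Libramed, Sqstm1, Ulk1 and Bnip3 kept their calls without each library and in the other alternatives.

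**Figure D2:**
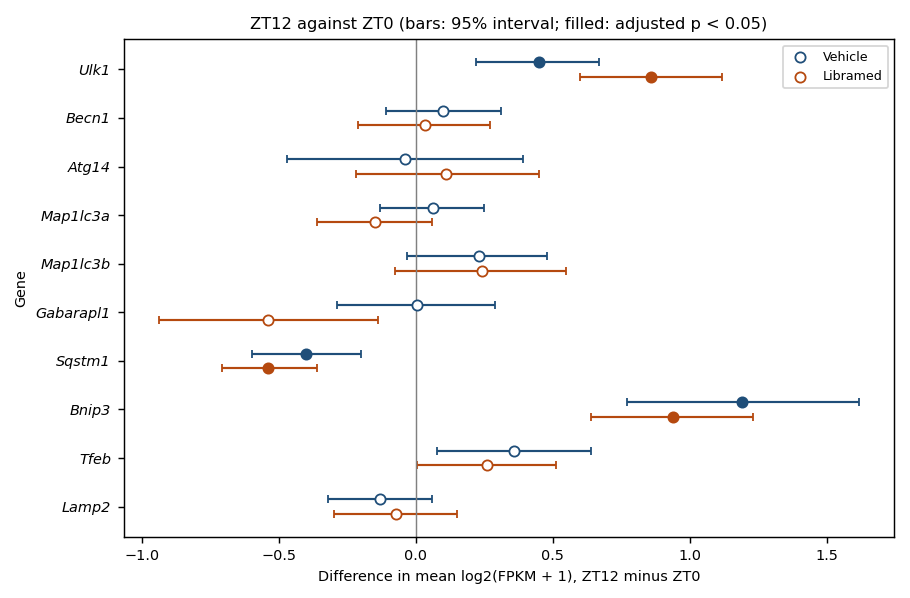
Difference between ZT12 and ZT0 in mean log2(FPKM + 1) (x axis) for each autophagy gene (y axis) in vehicle and in Libramed mice, 3 mice a group. Points are estimates, bars their 95% interval from limma, and filled points have an adjusted p under 0.05. Bnip3 and Ulk1 lie to the right and Sqstm1 to the left of 0 in both treatments, and only in Libramed mice does the interval of Gabarapl1 leave out 0.

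With all 12 mice in 1 fit, 4 of 10 members changed between the times, against 30.0% of all genes tested. Bnip3 was 1.07 higher on the log2 scale (SE 0.116, limma adjusted p = 8.10e-05), Ulk1 0.65 higher (SE 0.0744, limma adjusted p = 0.000106) and Sqstm1 0.47 lower (-0.47, SE 0.0523, limma adjusted p = 9.33e-05). Tfeb joined them with a rise of 0.31 (SE 0.0808, limma adjusted p = 0.0148). In the exact permutation test, which shuffles times within each treatment in 400 arrangements, these 4 genes had p = 0.005, the smallest it can give. Map1lc3b (0.23, SE 0.0897, exact permutation p = 0.025) missed the threshold with a limma p of 0.0251 before and 0.0730 after adjustment, as did Gabarapl1 (-0.27, SE 0.111, exact permutation p = 0.095) with 0.0330 and 0.0896. These 4 calls were kept without each of the 12 libraries in turn, with 5 members called when Libramed ZT12 replicate 3 was left out.

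Some sums of markers of other cell types also differed between the times. The summed level of the liver endothelial markers (6 of 6 listed, 5 with a mean of at least 1 FPKM) was 24.8 to 34.4 FPKM in vehicle ZT0 and 12.7 to 21.9 in vehicle ZT12, and 32.3 to 40.2 in Libramed ZT0 and 20 to 21.9 FPKM in Libramed ZT12. Stellate cell markers (5 of 5 listed, 4 of them at this mean) summed to 8.90 to 14.9 FPKM in Libramed ZT0 and to 5.16 to 6.95 in Libramed ZT12, and to 6.81 to 9.39 and 5.30 to 6.88 FPKM with vehicle, where the times overlapped. With vehicle alone, the fat cell list (4 of 4 listed, 1 of them, Cfd, at this mean, and Lep at 0 in all mice) summed to 2.85 to 7.97 FPKM at ZT0 and 11.5 to 42.8 at ZT12, and the exocrine pancreas list (6 of 6, mostly Cela1, with Cpa1 and Prss2 at 0 in all mice) to 47.7 to 71.2 and 31.1 to 46.8 FPKM. With Libramed alone, the lymphocyte list (3 of 3, none at this mean) summed to 0.920 to 1.10 FPKM at ZT0 and 0.141 to 0.451 FPKM at ZT12. Macrophage markers, including those of Kupffer cells (10 of 10 listed), overlapped between the times. In whole liver, fewer cells of a type and less RNA per cell cannot be told apart, and the part of these markers in the changes of the members was not tested. Hepatocyte markers (8 of 8) summed to 34855 FPKM or more in every mouse. As a check of the time labels, all 6 evening clock genes were higher and all 3 tested morning clock genes lower at ZT12 in both treatments.

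Against vehicle, Libramed changed no member past the threshold at either time. At ZT0 limma called 0 of 10 members, and 0% of all genes tested, at an adjusted p under 0.05. At an unadjusted p under 0.05 there were 2 members, against 9.23% of all genes. Gabarapl1 was 0.35 higher on the log2 scale with Libramed (SE 0.124, limma p of 0.0254 before and 0.513 after adjustment) and Map1lc3a 0.22 higher (SE 0.0848, limma p of 0.0339 and 0.526), with an exact permutation p = 0.1 for each. For both, and for Sqstm1, every Libramed mouse was above every vehicle mouse at ZT0, so that 3 of 10 members did not overlap, against 15.1% of all genes. For Sqstm1 the margin was narrow, from 232 FPKM in the highest vehicle mouse to 235 FPKM in the lowest Libramed mouse.

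At ZT12 limma called 0 of 10 members, as it did 0% of all genes. Ulk1 was the only member with an unadjusted p under 0.05, against 6.74% of all genes, and the only one whose groups did not overlap, against 13.1%. It was 0.35 higher with Libramed on the log2 scale (SE 0.0733, 95% interval 0.18 to 0.52, exact permutation p = 0.1), 24.2 ± 0.376 FPKM against 18.8 ± 1.30 (SD, n = 3). Its limma p was 0.00209 before adjustment, rank 28 of 9806 genes, and 0.700 after it. A version of Cyber-T, the regularised test that the study names, also called 0 members at either time after adjustment over all genes. The study does not state an adjustment for its own calls. The members' unadjusted results in that version are not reported here, so this count does not address the study's own cutoff. Over both times, limma called 0 of 10 members (0% of all genes), and none had an unadjusted p under 0.05, against 10.5% of all genes. At ZT0 the hepatocyte sum was 39756 to 48992 FPKM with Libramed and 34855 to 38327 with vehicle, carried mostly by Apoa1 (mean 29394 against 22771), while the means of Apob, Hnf4a and Tat were lower with Libramed. The macrophage sum was 32.7 to 53.6 FPKM with Libramed and 57.9 to 68.0 with vehicle, and the lymphocyte sum 0.920 to 1.10 and 0.104 to 0.618 FPKM. At ZT12 the fat cell sum was 2.74 to 11.2 FPKM with Libramed and 11.5 to 42.8 with vehicle. Almost all of it was Cfd (mean 7.80 against 26.8), with Adipoq, Plin1 and Lep at or near 0. The part of these markers in the members' values was not tested.

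**Figure D3:**
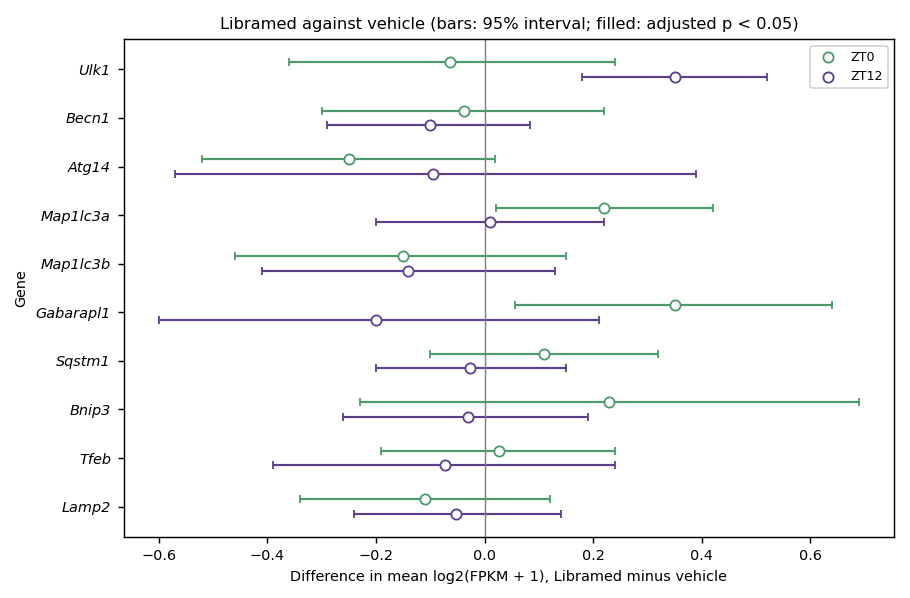
Difference between Libramed and vehicle in mean log2(FPKM + 1) (x axis) for each autophagy gene (y axis) at ZT0 and at ZT12, 3 mice a group. Points are estimates and bars their 95% interval from limma, with filled points for an adjusted p under 0.05, of which there are none. At ZT12 the interval of Ulk1, 0.18 to 0.52, is the only one that leaves out 0, and at ZT0 those of Gabarapl1 and Map1lc3a do.

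Whether the change over time itself differed between treatments was tested as the interaction of time and treatment. No member passed (limma, 0 of 10 and 0% of all genes), and 2 had an unadjusted p under 0.05, against 6.63% of all genes. For Ulk1 the change over time was 0.41 larger with Libramed (SE 0.149, exact permutation p = 0.04, limma p of 0.0175 before and 0.663 after adjustment). For Gabarapl1 it was 0.54 lower (-0.54, SE 0.222, exact permutation p = 0.045, limma p of 0.0317 and 0.717). The permutation tests ran over 400 arrangements and were not adjusted for the 10 members.

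The other genes of the pathway were taken from 8 lists by role, with 113 genes in all, of which 108 were tested. With vehicle 13 of them changed between the times (9 higher and 4 lower, 12%), and with Libramed 10 (5 higher and 5 lower, 9.26%), beside 10.4% and 12.4% of all genes. The genes called in both treatments were 6, or 46.2% of the vehicle calls and 60.0% of the Libramed calls. Atg13, Atg101, Uvrag, Sh3glb1 and Foxo1 were among them. The same overlap over all genes is not given here, so these shares cannot be read as particular to autophagy genes. With all 12 mice 35 of 108 changed, 21 higher and 14 lower, or 32.4% against 30.0% of all genes. Their median log2 difference was 0.035, beside 0.0078 over all genes.

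In that fit, genes are named with their log2 difference of ZT12 against ZT0, each with a limma adjusted p under 0.05. The share called per list stands beside 30.0% of all genes tested. It ran from 21.4% (cargo receptors) to 41.2% (nutrient signalling), apart from 75.0% of the 4 transcription factors. The lists are small, and differences between them were not tested. Among the genes of membrane initiation, 2 of 13 rose and 3 fell. Atg13 (-0.66) and Atg101 (-0.52), partners of ULK1 in its complex, fell while Ulk1 rose, and Wdr45b, a lipid-binding protein of the early membrane, was among those that rose (0.41). Of the 7 genes of the lipid kinase complexes, 2 rose, Uvrag (0.52), a Beclin 1 partner, and Sh3glb1 (0.37). Of 13 genes of ATG8 conjugation, 2 rose and 1 fell. They were Atg3 (0.33), the enzyme that passes ATG8 proteins to lipid, the protease gene Atg4d (0.20), and Atg12 (-0.20).

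Among 14 other cargo receptors, 1 rose and 2 fell. Tex264 (0.34), a receptor for endoplasmic reticulum, rose, and Fam134b (-0.50), which serves the same organelle, and Fundc1 (-0.31), a mitophagy receptor, fell. Of 4 tested transcription factors beside Tfeb, Foxo1 (0.61) and Foxo3 (0.58) rose, and Tfe3 (-0.33), a relative of Tfeb, fell. Of 17 regulators of nutrient signalling, 3 rose and 4 fell, with the largest differences for Sesn1 (-0.43), a stress-induced inhibitor of mTORC1, Deptor (0.35), which binds mTOR, and Prkaa2 (0.33), a catalytic subunit of AMPK.

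Of 13 genes of membrane fusion, 2 rose and 2 fell, led by Plekhm1 (-0.27), an adaptor of late endosomes, Stx17 (0.19), the SNARE of the autophagosome, and Vps18 (-0.19), a tethering subunit. Of 27 tested lysosomal genes beside Lamp2, 7 rose and 1 fell. Among those that rose were Clcn7 (0.40), a chloride transporter of the lysosome, and Hexa (0.36), an enzyme of glycolipid breakdown. Against vehicle, Libramed changed 0 of the 108 genes at ZT0, at ZT12 or over both times by limma, and 0 of 108 passed the interaction test. At an unadjusted p under 0.05 there were 14 at ZT0, 3 at ZT12, 11 over both times and 5 for the interaction, where all genes tested gave 9.23%, 6.74%, 10.5% and 6.63%.

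**Figure D4:**
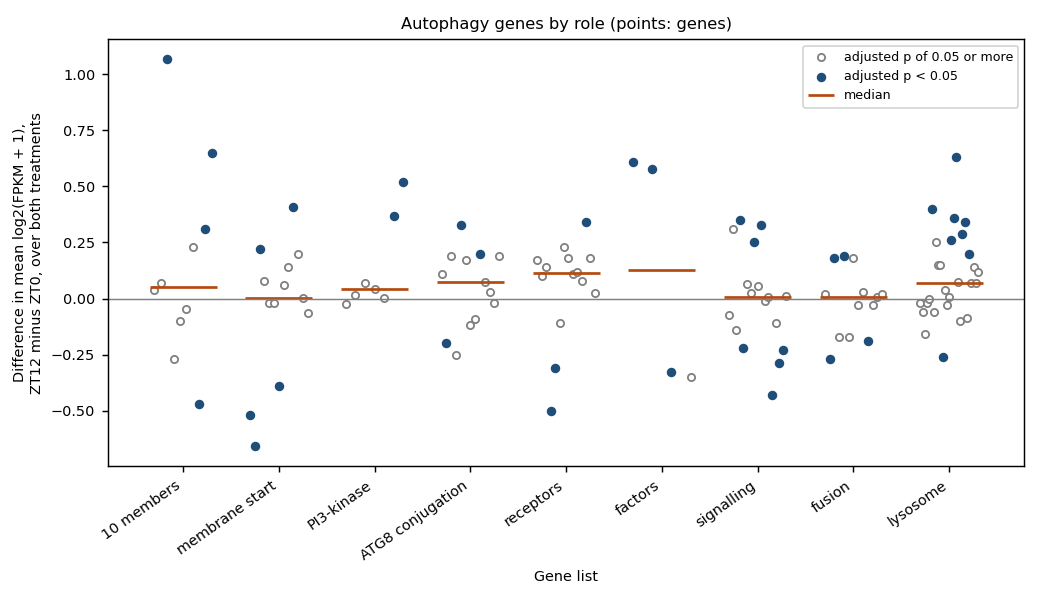
Difference between ZT12 and ZT0 over both treatments in mean log2(FPKM + 1) (y axis) for the 10 members and for 8 lists of other autophagy genes by role (x axis), from the fit of 12 mice. Each point is a gene, filled points have a limma adjusted p under 0.05 and lines give the median of each list. Changed genes lie on both sides of 0 in most lists, and the exception is the lipid kinase list with 2 of 7 genes changed, both upward. Of all genes tested, 30.0% changed in this fit.

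For the members called in any comparison, the genes with the most similar log2 profiles over the 12 mice were looked up among all genes tested, as a description. These mice share their groups, so any gene that differs between the times will resemble these members. Bnip3 was most like Slc35b2 (Pearson r = 0.986), Hnmt (0.976) and Marcksl1-ps4 (0.972). Ulk1 was most like Trak1 (0.949), Per2 (0.948), a clock gene of the evening, and Foxa3 (0.947). Sqstm1 was most like Dhrs3 (0.977), Pold2 (0.969) and Avpr1a (0.963), and Tfeb was most like Ctif (0.916), Nisch (0.916) and Qsox2 (0.899).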

How the data were processed

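Total RNA of whole liver was measured by mRNA sequencing. TruSeq RNA v2 is the kit given in the labels and a stranded mRNA kit the one given in the methods, so overlapping antisense transcripts may not be separated. The authors deposited 1 table, with an FPKM for each gene in each mouse. According to the methods reads were aligned to mm10 with ELAND, non-unique matches were discarded and values were scaled by length and mapped reads, while the submitters' processing notes name TopHat and Cuffnorm (mm10, GRCm38). Genes with near-identical copies are therefore uncertain. Of 24138 lines, 289 repeated a symbol, of which only the line highest on average entered. Albumin is listed at 0 in every sample, a failed estimate.

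Values were analysed as log2(FPKM + 1) for the 9806 genes averaging 1 FPKM or more, in R 4.3.3 with limma 3.58.1 (mean-variance trend, two-sided, Benjamini-Hochberg over all genes, threshold 0.05). Fold changes are on that scale, which understates the change of low genes. Each pair of groups was fitted on its 6 samples, and the interaction and the comparisons over both treatments or both times on all 12. Exact permutation tests were two-sided. Read totals are not in the table, so absolute depth is unknown. Relative depth, from the step of low values, spanned 1.99 times between libraries, FPKM sums ran from 634683 to 759355, and samples of a group correlated with r of 0.971 to 0.985 across genes. No libraries were identical (0 pairs). The spread of 3 mice sets the precision.

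Every member is named with its level in each sample, and differences with p only where the unadjusted p was under 0.05. For the other lists, at most 3 genes per list and comparison with adjusted p under 0.05 are named by size of change, and genes that passed in both treatments, except for 1 gene that is not reported here. The members and lists were chosen with earlier results of these data known. Of the lists, Atg9b, Mitf and Bcl2 were under the minimum, and Vmp1 and Glb1 did not match a symbol. Gene coordinates are from GENCODE vM21 and promoter windows from RefSeq (GRCm38.p6), matched by symbol for 8 members. Alternatives were a version of Cyber-T (window of 101 genes, prior weight 10), a block for the replicate number, 1 fit of the 12 samples for the pairs, a pseudocount of 0.1, a minimum of 5 FPKM or none, scaling by median ratios or quantile normalization, no trend in limma, and each library left out. The calculations were tested on simulated data.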

Additional observations from a re-analysis of the deposited data

Results flagged for a closer look

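The change of Ulk1 from ZT0 to ZT12 was 0.41 larger on the log2 scale with Libramed than with vehicle (limma, unadjusted p = 0.0175, adjusted p = 0.663), and ran from 0.31 to 0.51 when each library was left out. The change of Gabarapl1 over time was -0.54 relative to vehicle (limma, unadjusted p = 0.0317, adjusted p = 0.717), with -0.71 to -0.38 when each library was left out. Both were picked out because the test of the difference between treatments gave an unadjusted p under 0.05, which 6.63% of all genes tested did.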

How the results depend on the processing

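No fold change reversed direction (0 reversed) under the alternatives. This covers only members with an unadjusted p under 0.05 in the main fit, and counts cannot reverse. Of 566 repeats of fold changes and counts, 518 kept their side of the threshold or a count near, though not always equal to, the main one. The count of members that passed over time with vehicle, 3, became 1 with no minimum FPKM, 1 in the version of Cyber-T and 0 to 2 with each library left out. The other autophagy genes that passed with vehicle, 13, became 6 with no minimum, 20 in the fit over all 12 samples, 4 in the version of Cyber-T and 1 to 13 with each library left out. With Libramed, 10 became 4 with no minimum, 18 in the fit over all 12 samples and 2 to 7 with each library left out. No minimum tests more genes and leaving out a library uses fewer mice. Otherwise the cause was not tested. Over both treatments the members that passed stayed between 4 and 6 and the other genes between 25 and 36. Quantile normalization added Gabarapl1 in Libramed mice (-0.65, limma adjusted p = 0.0431) and over both treatments (-0.37, limma adjusted p = 0.0289), where Lamp2 also passed, lower at ZT12 (-0.20, limma adjusted p = 0.0473). The fit over all 12 samples added it in Libramed mice (limma adjusted p = 0.0395). The comparisons of Libramed with vehicle and the interaction kept 0 members and 0 other genes in every setting run.

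Replicate numbers showed no consistent pairing of the mice within the comparisons of time and of treatment. For each pair of same-numbered samples, the correlation across genes of their deviations from the group means was calculated. The correlation was over 0.1 in 1 of 3 pairs for the Libramed time comparison (-0.0992 to 0.257). It was over 0.1 in 0 of 3 pairs for each of the other comparisons. With the number as a replicate block, members that passed with vehicle went from 3 to 1, other genes with vehicle from 13 to 2 and with Libramed from 10 to 4, and Gabarapl1 passed over both treatments (limma adjusted p = 0.0454). Without read counts, the counting error of low genes such as Atg14 and Tfeb cannot be estimated, and the depth behind each value is not known.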

Other observations

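Ddit4, which encodes REDD1, a stress-induced inhibitor of mTORC1, was singled out after its values were seen because it had the largest interaction of the 108 other autophagy genes. It was at 7.74 to 13.2 FPKM in vehicle ZT0, 3.31 to 7.49 in vehicle ZT12, 2.25 to 8.13 in Libramed ZT0 and 9.49 to 20.5 FPKM in Libramed ZT12. Its mean was thus lower at ZT12 with vehicle and higher with Libramed, and the times did not overlap in either treatment. The interaction was 2.17 on the log2 scale (SE 0.548), with a limma p of 0.00214 before and 0.519 after adjustment. At ZT12 Ddit4 was 1.32 higher with Libramed than with vehicle (SE 0.320, limma p of 0.00457 before and 0.729 after adjustment).

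Of the 108 other genes, 5 had an unadjusted interaction p under 0.05, against 6.63% of all genes tested. They included the lysosomal genes Ctsz, a cathepsin (-0.43), Hexa (-0.45) and Npc1, a cholesterol transporter (-0.30), where the negative sign gives a change from ZT0 to ZT12 that was lower with Libramed. For Ctsz the change was 0.26 with vehicle and -0.18 with Libramed. Their limma p was 0.00646, 0.0119 and 0.0465 before adjustment and 0.560, 0.625 and 0.743 after it. At ZT0 Ctsz was at 179 to 192 FPKM with vehicle and 215 to 239.7 FPKM with Libramed. At ZT12 it was at 202 to 244 and 186 to 218 FPKM, where the treatments overlapped. These genes too were named after their values were seen.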
